A study of Mus musculus with 32 samples.

Results

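The 9 genes of the extraembryonic endoderm described here were followed through the early days of mouse retinal organoid culture: Gata4, Gata6, Sox17, Sox7, Foxa2, Hnf4a, Dab2, Srgn and Amn. They were selected by gene symbol from a deposited expression table, and the 9 symbols matched 9 of its 55492 rows. The table covered 32 libraries of polyadenylated RNA in 16 groups of 2, made from 4 cultures at days 0, 2, 4 and 6. WT was the Rx:GFP line, labelled WT for its genotype. Its name joins the retinal gene Rx, now called Rax, with green fluorescent protein. KO was the line labelled Mettl3 KO. Mettl3 encodes the enzyme subunit that writes N6-methyladenosine on RNA. The remaining cultures, called no Dex and Dex here, were the line labelled WT MTL3-GRBD OE in Mettl3 KO, which carried a METTL3 fusion protein on the knockout background. Per the series' design text this protein was cytosolic without dexamethasone (Dex), a synthetic glucocorticoid, and was moved to the nucleus with it. Dex was given at 10 µM. WT and KO received none, so an action of Dex in cells without the fusion was not measured. Day 0 libraries were from embryonic stem cells, and organoids of days 2, 4 and 6 in all 4 cultures were labelled as treated with AGN (0.1 µM in the medium). Day 0 libraries of the Dex culture carry a Dex label too, although the protocol speaks of treatment for 2, 4 and 6 days only. The sample labels were followed. How the knockout was made, how many clones were used and what promoter drove the fusion were not given in the sources used here.

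The extraembryonic endoderm comes from the primitive endoderm, which is set aside in the inner cell mass of the mouse blastocyst. The primitive endoderm then forms the parietal and visceral endoderm of the yolk sac. GATA6 and GATA4, zinc finger transcription factors, act at the top of this program, and the SRY-related factors SOX17 and SOX7 act with them. FOXA2 and HNF4A drive genes of the visceral endoderm, a cell layer that takes up nutrients with the endocytic adaptor DAB2 and with amnionless, the product of Amn, which anchors the receptor cubilin. Srgn encodes serglycin, the core protein of a secreted and granule-stored proteoglycan. None of the 9 is limited to this lineage: SOX17 and FOXA2 also act in definitive endoderm, GATA4 and GATA6 in heart, SOX7 and SOX17 in endothelium, and serglycin is abundant in blood cells.

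Promoter sequence is shown for Srgn, Amn and Dab2, the 3 genes with the largest KO minus WT difference at day 2 (-4.29, -3.64 and -3.09 on the log2 scale used throughout and explained with the results). The sequences are RefSeq windows on build GRCm38.p6 that end 1 base before the annotated GENCODE exons, written 5′ to 3′ on the gene's strand, from chr10:62527452-62527695 (minus strand) for Srgn, chr12:111270846-111271094 (plus strand) for Amn and chr15:6299539-6299787 (plus strand) for Dab2. Capitals mark a GATA motif, searched on both strands as the letters GATA after an A or T and before an A or G.
Srgn: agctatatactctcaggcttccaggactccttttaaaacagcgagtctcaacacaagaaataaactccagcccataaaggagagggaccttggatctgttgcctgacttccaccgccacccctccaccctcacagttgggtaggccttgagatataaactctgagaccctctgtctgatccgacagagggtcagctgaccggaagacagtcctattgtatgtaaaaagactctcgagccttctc
Amn: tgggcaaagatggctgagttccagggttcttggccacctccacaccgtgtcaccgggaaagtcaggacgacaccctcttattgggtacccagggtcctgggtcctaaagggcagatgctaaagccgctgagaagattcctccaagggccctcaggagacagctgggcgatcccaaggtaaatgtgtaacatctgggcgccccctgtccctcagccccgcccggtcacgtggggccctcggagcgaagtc
Dab2: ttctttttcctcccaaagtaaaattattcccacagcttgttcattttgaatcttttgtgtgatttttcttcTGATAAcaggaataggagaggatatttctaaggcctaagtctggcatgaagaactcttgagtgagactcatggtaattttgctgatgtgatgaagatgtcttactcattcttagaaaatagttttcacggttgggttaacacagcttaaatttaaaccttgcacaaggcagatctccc
The Dab2 window shown held 1 GATA motif, at -179 from its start site, and the Srgn and Amn windows shown held none. Dab2 and Srgn each have a further RefSeq window at another start site, not shown, and neither of those held a GATA motif. One of these motifs stood in 26.5% of the 32851 RefSeq windows of the reference table. A SOX motif, searched as AACAAT or ACAATG on both strands, stood in none of the 3 windows and in 16.2% of all windows. A match or its absence in such a window is a property of these letters only. RefSeq windows were matched for 5 of the 9 genes: Foxa2, Hnf4a, Srgn, Amn and Dab2.

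The 9 genes are protein-coding in the GENCODE M21 annotation of GRCm38. Gata4 lies at chr14:63198922-63271692 and Sox7 at chr14:63943673-63950732, on the same chromosome. Sox17 lies at chr1:4490931-4497354, Foxa2 at chr2:148042877-148046969 and Hnf4a at chr2:163506808-163572910. Dab2 spans chr15:6299788-6440712, Srgn chr10:62493833-62527451, Amn chr12:111271095-111276426 and Gata6 chr18:11052064-11085635.

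Levels are FPKM, fragments per kilobase of transcript scaled to the size of the library, as the authors deposited them. The depth of each library was estimated from the smallest steps of its FPKM values and ran from 28.3 to 54.3 M fragments (median 37.7 M). For a transcript of 2 kb, 3 fragments are then worth 0.032 to 0.063 FPKM. Of the 9 genes, Sox7 was at or under its own 3-fragment level in 3 libraries and Hnf4a in 1, all of them KO or no Dex. Pearson's r between duplicates was 0.9922 to 0.9955 across genes, which are not independent replicates. The labels say that duplicates were prepared and sequenced as independent libraries and do not say whether they were separate cultures, so p-values may measure only technical spread. The 8 stem cell genes summed to between 1990 and 2250 FPKM in day 0 libraries and to between 205 and 281 FPKM at day 6. The 8 retina and eye field genes summed to between 25.2 and 35.7 FPKM at day 0 and reached 760 to 794 FPKM in WT and 320 to 323 FPKM in KO at day 6. Mettl3 RNA was not called lower under the KO label at any day: it averaged 43.4 FPKM against 35 in WT at day 0 (log2 change 0.3, limma adjusted p = 0.000417), 39.9 against 40.7 at day 2 (adjusted p = 0.713), 36.6 against 33.5 at day 4 (adjusted p = 0.0904) and 37.6 against 35.7 at day 6 (adjusted p = 0.325). The gene-level RNA therefore gives no check of the KO label, and KO means the libraries so labelled in every direction given here.

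The 9 genes had their highest mean levels in WT at every day, as the plot of FPKM by culture and day shows. Each WT library (8) was above each of the 24 other libraries for Gata4, Gata6, Sox17 and Sox7. The same was true of 7 of the 8 WT libraries for Hnf4a and Srgn and of 6 of 8 for Foxa2, Dab2 and Amn. In bulk RNA, fewer cells expressing a gene and less RNA per cell cannot be told apart.

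**Figure D1:**
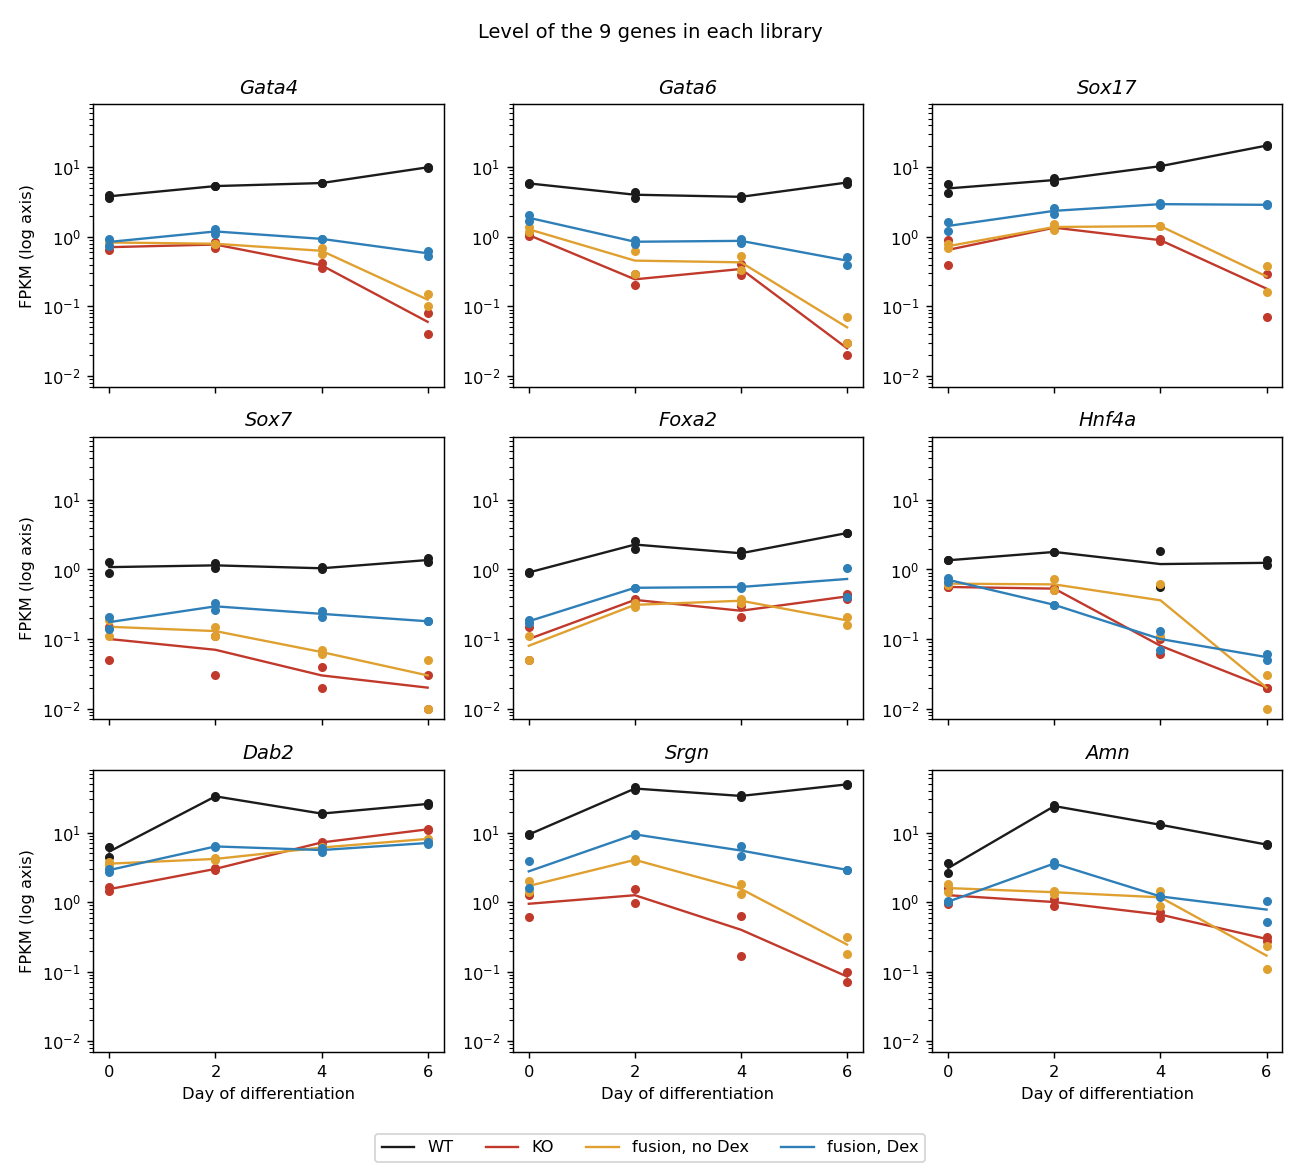
FPKM (log axis) of each gene against day of differentiation; points are single libraries (2 per culture and day), lines join the means, and colours give WT, KO and the fusion line without and with Dex. The WT lines lie highest in each panel, while KO and no Dex end lower at day 6 than at day 0 except for Dab2, which rises to 11.2 FPKM in KO, and Foxa2.

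Among the GATA factors, Gata4 rose in WT. It was at 4.05 and 3.6 FPKM at day 0, 5.42 and 5.31 at day 2, 5.95 and 5.91 at day 4, and 9.79 and 10.17 at day 6. KO had 0.77 and 0.65 FPKM at day 0, then 0.85 and 0.7, then 0.42 and 0.36, and finally 0.04 and 0.08 at day 6. The KO levels were thus low from the stem cell stage on and lowest at the last day, with no library near WT. The no Dex libraries had 0.86 and 0.8, 0.8 and 0.79, 0.56 and 0.7, and 0.15 and 0.1 FPKM at days 0, 2, 4 and 6. Dex libraries had 0.75 and 0.94, 1.11 and 1.28, 0.94 and 0.93, and 0.53 and 0.63 FPKM at those days. The Dex libraries overlapped no Dex at day 0 and lay above it from day 2 on. In the order of the 16 group means, the 4 WT groups came first (9.98, 5.93, 5.36 and 3.82 FPKM at days 6, 4, 2 and 0), Dex day 2 followed at 1.2, and KO day 6 was last at 0.06. From Dex day 4 (0.935 FPKM) down to Dex day 6 (0.58 FPKM), each group overlapped its neighbour in that order.

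Gata6 did not rise in WT. The WT libraries had 5.93 and 5.79 FPKM at day 0, 3.65 and 4.41 at day 2, 3.65 and 3.87 at day 4, and 6.36 and 5.71 at day 6. The first and the last day overlapped, and the days between were lower. KO fell from 1.09 and 1.03 FPKM at day 0 to 0.2 and 0.29 at day 2, 0.41 and 0.28 at day 4, and 0.02 and 0.03 at day 6. No Dex had 1.19 and 1.38, 0.62 and 0.29, 0.53 and 0.33, and 0.03 and 0.07 FPKM at the 4 days, and Dex had 2.07 and 1.69, 0.9 and 0.8, 0.93 and 0.82, and 0.4 and 0.51. Dex was above no Dex without overlap at each day, and both were below each WT library. The order of group means ran from WT day 6 (6.04 FPKM) and WT day 0 (5.86), which overlapped, through Dex day 0 (1.88) to KO day 6 (0.025), and 8 of the 15 neighbours in it overlapped.

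Of the SOX factors, Sox17 rose most in WT. WT libraries had 4.22 and 5.71 FPKM at day 0, 7.03 and 6.07 at day 2, 10 and 10.74 at day 4, and 20.92 and 20.05 at day 6. KO had 0.4 and 0.9 FPKM at day 0, 1.35 and 1.36 at day 2, 0.86 and 0.93 at day 4, and 0.29 and 0.07 at day 6. KO therefore peaked at day 2 while WT was highest at day 6, and the cultures did not overlap. No Dex had 0.79 and 0.68, 1.26 and 1.51, 1.44 and 1.41, and 0.16 and 0.38 FPKM, whereas Dex had 1.22 and 1.65, 2.62 and 2.11, 2.87 and 3.03, and 2.92 and 2.85. The Dex libraries stayed near their day 4 level at day 6, when no Dex was low, and Dex and no Dex did not overlap at any day. In the order of means the 4 WT groups (20.5 to 4.96 FPKM) were followed by Dex day 4 and Dex day 6 (2.95 and 2.88), which overlapped, and KO day 6 was last at 0.18.

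Sox7 was much lower per kilobase than Sox17. WT ranged from 0.89 to 1.45 FPKM over its 8 libraries (median 1.16). KO ranged from 0.01 to 0.15 FPKM, no Dex from 0.01 to 0.19 and Dex from 0.14 to 0.33. WT did not overlap any other culture, and at day 6 Dex (0.18 and 0.18 FPKM) lay above no Dex (0.01 and 0.05). KO averaged 0.1 FPKM at day 0 and 0.02 at day 6, and no Dex 0.15 and 0.03, without overlap between these days, but neither difference passed the test described with the comparisons and the day 6 levels are near 3 fragments. Of the 15 neighbours in its order of group means 10 overlapped.

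Foxa2 rose in WT from 0.93 and 0.88 FPKM at day 0 to 2.6 and 1.96 at day 2, 1.59 and 1.83 at day 4, and 3.29 and 3.39 at day 6. KO libraries had 0.05 and 0.15, 0.37 and 0.36, 0.3 and 0.21, and 0.44 and 0.38 FPKM at days 0, 2, 4 and 6. Unlike the GATA and SOX factors, Foxa2 in KO was lowest at day 0 and highest at day 6, and it stayed under the lowest WT library. No Dex was between 0.05 and 0.38 FPKM. Dex was between 0.17 and 0.57 FPKM through day 4 and split at day 6 into 1.06 and 0.4, the widest gap between duplicates that it showed. In the order of Foxa2 means the 4 WT groups (3.34 to 0.905 FPKM) came first, and 9 of 15 neighbours overlapped.

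Hnf4a in WT was at 1.36 and 1.35 FPKM at day 0, 1.76 and 1.81 at day 2, 0.56 and 1.83 at day 4, and 1.14 and 1.35 at day 6. The first WT library of day 4 stood apart from the others. KO had 0.56 and 0.56, 0.51 and 0.55, 0.06 and 0.1, and 0.02 and 0.02 FPKM at the 4 days. No Dex had 0.59 and 0.66, 0.72 and 0.5, 0.11 and 0.61, and 0.01 and 0.03 FPKM at those days. Dex had 0.67 and 0.75, 0.31 and 0.31, 0.07 and 0.13, and 0.05 and 0.06. At day 2 Dex lay below no Dex without overlap, but the difference did not pass the test described with the comparisons. At day 4 the second no Dex library (0.61 FPKM) lay above the first WT library (0.56). Hnf4a thus ended at 0.06 FPKM or less in the 3 cultures on the knockout background, with or without Dex. In its order of means WT day 2 led at 1.78 FPKM, and 10 of 15 neighbours overlapped.

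Among the markers that are not transcription factors, Dab2 differed in its course. WT libraries had 6.19 and 4.46 FPKM at day 0, 32.82 and 33.37 at day 2, 18.41 and 18.99 at day 4, and 25.26 and 26.2 at day 6. KO had 1.63 and 1.44 FPKM at day 0, 3.09 and 2.91 at day 2, 7.17 and 7.22 at day 4, and 11.01 and 11.2 at day 6. KO was below WT at each day yet rose at each step, so that its day 6 libraries exceeded the WT libraries of day 0. No Dex had 3.72 and 3.41, 4.07 and 4.27, 6.25 and 5.91, and 8.13 and 8.06 FPKM, and Dex had 3.03 and 2.74, 6.46 and 6.15, 5.17 and 6.02, and 6.82 and 7.31. At day 6 both fusion groups lay below KO, and Dex lay below no Dex. In the order of means WT days 2, 6 and 4 led (33.1, 25.7 and 18.7 FPKM), KO day 6 followed at 11.1, and KO day 0 was last at 1.54; 5 of 15 neighbours overlapped.

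Amn, in contrast, peaked early. WT libraries had 2.58 and 3.59 FPKM at day 0, 22.71 and 25.24 at day 2, 12.61 and 13.21 at day 4, and 6.56 and 6.86 at day 6. KO fell from 1.58 and 0.93 FPKM at day 0 through 0.89 and 1.11 and then 0.73 and 0.59 to 0.31 and 0.28 at day 6. The peak at day 2 in WT had no counterpart in KO. No Dex had 1.79 and 1.39, 1.45 and 1.32, 0.89 and 1.45, and 0.23 and 0.11 FPKM, and Dex had 1.04 and 0.99, 3.76 and 3.42, 1.24 and 1.17, and 0.51 and 1.05. Dex exceeded no Dex at days 2 and 6, lay below it at day 0 and overlapped it at day 4. In the order of means WT days 2, 4 and 6 led (24, 12.9 and 6.71 FPKM), followed by Dex day 2 at 3.59, and 9 of 15 neighbours overlapped.

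Srgn had the widest range of the 9 genes. WT libraries had 9.13 and 9.55 FPKM at day 0, 41.23 and 44.45 at day 2, 34.58 and 32.5 at day 4, and 50.2 and 48.16 at day 6. KO had 0.61 and 1.28, 1.54 and 0.97, 0.17 and 0.63, and 0.07 and 0.1 FPKM at the 4 days. The KO libraries stayed low while WT rose after day 0. No Dex had 2.02 and 1.39, 4.2 and 3.89, 1.8 and 1.29, and 0.31 and 0.18 FPKM, and Dex had 3.95 and 1.58, 9.33 and 9.46, 4.52 and 6.49, and 2.87 and 2.93. Dex and no Dex both peaked at day 2, overlapped at day 0 and separated from day 2 on. In the order of means WT days 6, 2 and 4 led (49.2, 42.8 and 33.5 FPKM), Dex day 2 and WT day 0 followed and overlapped (9.4 and 9.34), and 8 of 15 neighbours overlapped.

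The first comparison asked how the knockout differed from its WT counterpart at each day. In the libraries labelled KO, all 9 genes were lower than in WT at days 0, 2, 4 and 6. This was tested with limma on log2(FPKM + 1), in 1 fit over the 32 libraries and 16276 genes with at least 1 FPKM in at least 2 libraries, with Benjamini-Hochberg adjusted p under 0.05 as the threshold. A log2 change on this scale understates the change of genes near or under 1 FPKM. Among all tested genes 29.8%, 21.3%, 24% and 34.2% passed as lower at days 0, 2, 4 and 6, against 9 of 9 here. In either direction 48.2%, 58.9%, 60.5% and 65.1% passed. The KO and WT libraries of these genes did not overlap at any day, which held for 66.7%, 77.8%, 79.1% and 81.5% of all tested genes. The median log2 change of the 9 genes was -1.31, -1.84, -1.82 and -2.57 at days 0, 2, 4 and 6, and that of all tested genes was -0.04, 0.09, 0.06 and -0.03. Sox7 and Hnf4a reached 1 FPKM in WT libraries alone, and Foxa2 in 6 WT libraries and 1 Dex library. These 3 genes passed the low-value filter through the group in which they are high, so their share in the counts and medians is not evidence of a difference. The 9 genes, and the marker lists given further on, were chosen with earlier results of these data known. Their counts beside the shares of all tested genes are therefore descriptions, here and below, and not independent evidence.

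The stem cell stage already showed the difference. At day 0 Gata4 fell by 1.5 (SE 0.07, limma adjusted p = 3.02e-12), Gata6 by 1.74 and Sox17 by 1.86 on the log2 scale, which are 5.39-, 5.53- and 7.64-fold lower mean FPKM in KO. Srgn had the largest log2 change of FPKM + 1 among the 9 at day 0, at -2.43 (SE 0.23, limma adjusted p = 6.94e-08, 9.88-fold in mean FPKM), while Sox7 had the largest fold, 10.8. Amn (-0.86) and Hnf4a (-0.59) had the smallest fold in mean FPKM, 2.46- and 2.42-fold lower. The adjusted p of Amn at day 0 was 0.079 when only the 4 compared libraries were fitted and that of Hnf4a at day 4 was 0.0834.

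At day 2 Srgn and Amn had the largest folds in mean FPKM. Srgn was 34.1-fold lower in KO, the log2 change being -4.29 (SE 0.23, limma adjusted p = 9.71e-12), and Amn was 24-fold lower (-3.64). Gata6 (-2.01) and Sox7 (-1) were each 16.4-fold lower, Dab2 11-fold (-3.09), and the other 4 transcription factors between 3.37-fold (Hnf4a) and 6.92-fold (Gata4). The Sox7 fold is uncertain here too, with KO at 0.03 and 0.11 FPKM where 3 fragments are worth 0.018 and 0.03. At day 6 Srgn changed by -5.53, Sox17 by -4.19 (SE 0.14, limma adjusted p = 2.04e-15), Gata4 by -3.37 (SE 0.07, adjusted p = 9.9e-19) and Gata6 by -2.78. Dab2, at 11.1 against 25.7 FPKM, had the smallest fold at day 6, 2.32, and its log2 change was -1.14 (SE 0.09, limma adjusted p = 6.6e-10). The plot of differences by day shows Dab2 and Amn farthest from 0 at day 2, and Gata4, Gata6, Sox17, Sox7, Foxa2, Hnf4a and Srgn at day 6.

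**Figure D2:**
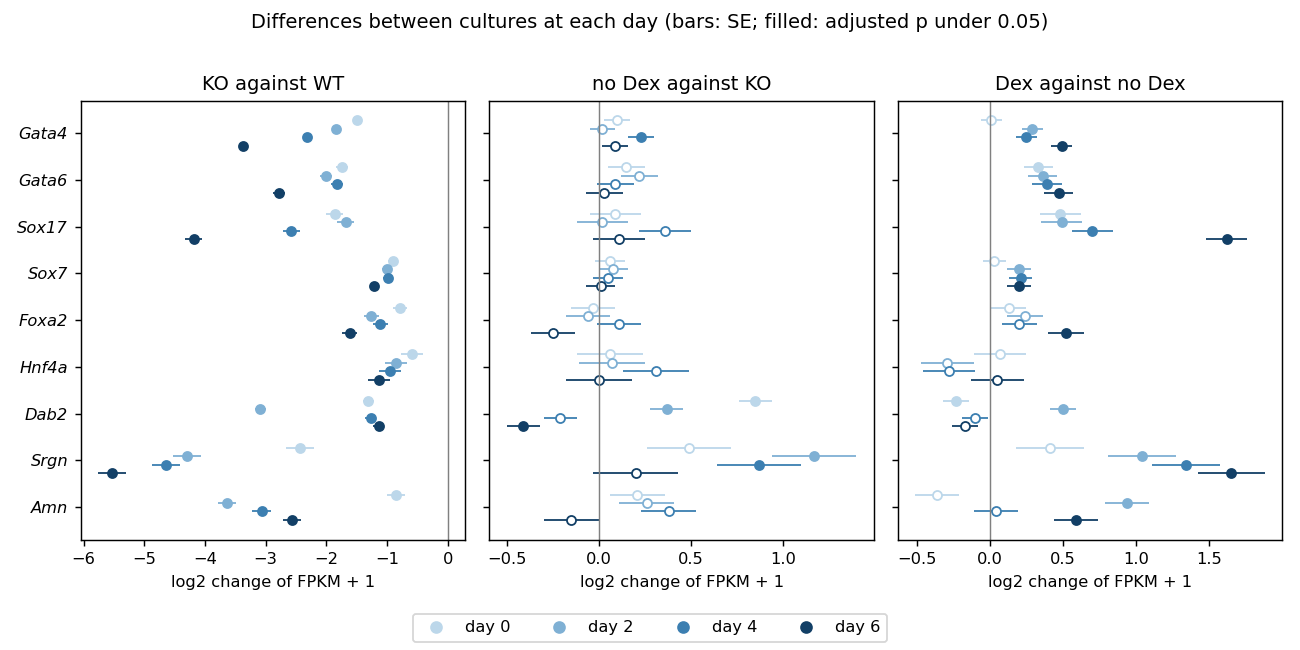
Log2 change of FPKM + 1 for each gene in 3 comparisons, with shades of blue for days 0 to 6, bars for the standard error, and filled points where the limma adjusted p was under 0.05. Each point of KO against WT is below 0, the no Dex against KO points lie between -0.41 and 1.17 with 6 of them filled, and the Dex against no Dex points of Sox17 and Srgn reach 1.62 and 1.65 at day 6; the 3 panels have different axes.

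The difference itself changed between days 0 and 6 for 7 of the 9 genes by the limma interaction of culture and day on log2(FPKM + 1), each time with a more negative value at day 6, where 25.8% of all tested genes passed in that direction. Among the 7, Sox7 passed the low-value filter through WT alone and Foxa2 mostly so. Their place in this count is not evidence of a change. For Srgn the KO minus WT difference was larger at day 6 than at day 0 (interaction -3.1, SE 0.33, limma adjusted p = 1.43e-07), and for Sox17 and Gata4 it was -2.33 and -1.88. The Foxa2 interaction (-0.83) depended on the log2(FPKM + 1) scale: with a pseudocount of 0.1 it was -0.38 and did not pass (limma adjusted p = 0.46). The fold of Foxa2 was 9.05 at day 0 and 8.15 at day 6. Its day 0 fold is uncertain, because KO had 0.05 and 0.15 FPKM and 3 fragments are worth 0.045 in the first library. The Sox7 interaction did not pass without the second WT library of day 0 (-0.17) or of day 6 (-0.25), the second KO library of day 0 (-0.23) or the first of day 6 (-0.28). For Dab2 the interaction was 0.16 (SE 0.12) and did not pass. It did not pass for Hnf4a (-0.54, SE 0.25) either.

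The second comparison set the fusion line without Dex against KO, which asks what the fusion line shows when the protein is described as cytosolic. In either direction 1, 2, 2 and 1 of the 9 genes passed at days 0, 2, 4 and 6, where 49.1%, 37%, 26.7% and 49% of all tested genes did. At day 0 Dab2 alone passed, as higher in no Dex (3.57 against 1.54 FPKM, log2 change 0.85, SE 0.09, limma adjusted p = 1.3e-07), 1 of 9 where 19.3% of all tested genes passed as higher. At day 2 Dab2 (0.37) and Srgn (1.17, SE 0.23, limma adjusted p = 0.000568) were higher, 2 of 9 against 14.8% of all tested genes. At day 4 Gata4 (0.23) and Srgn (0.87) were higher, 2 of 9 against 9.66%, but Gata4 did not pass without the second KO library (0.2) or the second no Dex library (0.17), nor Srgn without the first of either (0.64 and 0.73). At day 6 Dab2 was lower in no Dex, at 8.1 against 11.1 FPKM (-0.41, SE 0.09, limma adjusted p = 0.000551), 1 of 9 against 27.9% called lower. Dab2 therefore lay above KO at days 0 and 2 and below it at day 6. The median log2 changes of the 9 genes were 0.1, 0.08, 0.23 and 0.01 at days 0, 2, 4 and 6, beside -0.03, -0.04, -0.03 and -0.01 for all tested genes.

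The third comparison was of the fusion line with and without Dex, that is with the protein described as nuclear or as cytosolic. From day 2 on, Gata4, Gata6, Sox17, Sox7 and Srgn were higher with Dex. At day 2 they were joined by Dab2 and Amn, 7 of 9 genes against 12.7% of all tested genes called higher. At day 4 the 5 genes passed alone, against 18.3%, and at day 6 Foxa2 and Amn passed with them, 7 of 9 against 23.8%. At day 0 Gata6 (0.33) and Sox17 (0.48) were higher and Dab2 (-0.23) was lower, where 27.3% of all tested genes passed as higher and 16.1% as lower. The median log2 change of the 9 genes was 0.07, 0.36, 0.21 and 0.49 at days 0, 2, 4 and 6, beside 0.04, -0.08, -0.01 and 0.01 for all tested genes.

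On the log2 scale the Dex minus no Dex values of Sox17, Srgn and Gata6 were larger at each later day from day 2 to day 6. The steps between these days were not tested, and each Gata6 step was smaller than its SE. In mean FPKM Srgn fell in both cultures from day 2 to day 6, from 9.4 to 2.9 with Dex and from 4.04 to 0.245 without. Sox17 with Dex exceeded no Dex by 0.49, 0.7 and 1.62 at days 2, 4 and 6 (SE 0.14 each, limma adjusted p = 1.72e-08 at day 6), the last being 10.7-fold in mean FPKM. Srgn exceeded it by 1.04, 1.34 and 1.65 (SE 0.23, limma adjusted p = 1.07e-05 at day 6), 11.8-fold at day 6. Gata6 exceeded it by 0.36, 0.39 and 0.47 (SE 0.1 each, limma adjusted p = 0.000908 at day 6), or 1.87-, 2.03- and 9.1-fold, the last over a no Dex mean of 0.05 FPKM. Sox7 was higher by 0.2, 0.21 and 0.2 at those days. Gata4 was higher by 0.49 (SE 0.07, limma adjusted p = 7.41e-06) at day 6, 4.64-fold. At day 2 Amn was higher by 0.94 (SE 0.15, limma adjusted p = 4.88e-05) and Dab2 by 0.5 (SE 0.09, adjusted p = 0.000116). At day 6 Dab2 changed by -0.17 (SE 0.09) and Hnf4a by 0.05 (SE 0.18), and neither passed. The interaction of Dex and day was positive for Srgn (1.24, SE 0.33), Sox17 (1.13, SE 0.2), Amn (0.95, SE 0.21) and Gata4 (0.48, SE 0.09), 4 of 9 genes against 22.7% of all tested genes. The Srgn interaction did not pass when the compared groups were fitted alone (limma adjusted p = 0.0591), and that of Gata6 was 0.14 (SE 0.14) and did not pass.

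These calls were less even than those of KO against WT. Without one or another single library, 4 of the 7 calls at day 2 (Gata4, Dab2, Srgn and Amn), 2 of the 5 at day 4 (Sox17 and Srgn) and 4 of the 7 at day 6 (Gata4, Gata6, Sox17 and Srgn) were kept throughout, and none of the 3 at day 0. The Sox7 calls (limma adjusted p = 0.0483, 0.0406 and 0.0497 at days 2, 4 and 6) were lost whichever library of the compared groups was left out. At day 2 Gata6 did not pass without the second no Dex library (0.19) or the first Dex library (0.32), nor Sox17 without the first of either (0.42 and 0.38). At day 4 Gata4 did not pass without the first no Dex library (0.19), nor Gata6 without the second (0.29). At day 0 Gata6 did not pass without the first no Dex (0.27) or first Dex library (0.24), Sox17 without the second of either (0.44 and 0.36), nor Dab2 without the first no Dex or second Dex library (both -0.18). Foxa2 at day 6 did not pass without the first Dex library (0.24, limma adjusted p = 0.0516), nor Amn without the second (0.37, limma adjusted p = 0.0985).

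Compared with WT, the Dex cultures remained lower for all 9 genes at each day, while sharing the WT libraries with the first comparison. Among all tested genes 30.8%, 17.2%, 19.1% and 32.2% were called lower at days 0, 2, 4 and 6. At day 6 Sox17 had a mean of 2.88 FPKM with Dex against 20.5 in WT (log2 change -2.47, SE 0.14, limma adjusted p = 1.06e-11). Srgn had 2.9 against 49.2 FPKM (-3.69, SE 0.23, limma adjusted p = 6.17e-11), and Gata4 had 0.58 against 9.98 FPKM (-2.8, SE 0.07). The median log2 change of the 9 genes was -1.01, -1.44, -1.52 and -2.13 at the 4 days, beside -0.04, -0.01, 0.03 and -0.02 for all tested genes. Here too, Sox7 and Hnf4a passed the low-value filter through WT alone, and Foxa2 mostly so. Their share in this count and these medians is not evidence of a difference. Hnf4a at day 0 (-0.46, limma adjusted p = 0.0375) lost its call whichever of the 4 libraries was left out.

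Within the cultures, the days were compared with day 0, whose libraries the 3 comparisons of a culture share. In WT 7 of 9 genes were higher at day 6, namely Gata4, Sox17, Sox7, Foxa2, Dab2, Srgn and Amn, against 43.6% of all tested genes. Their log2 changes ran from 0.19 for Sox7 to 2.28 for Srgn (SE 0.23, limma adjusted p = 2.6e-08). Foxa2 reached 1 FPKM in WT only after day 0, so its place in this count is not evidence of a rise. The Sox7 call (SE 0.08, limma adjusted p = 0.0326) was lost without the second WT library of day 0 (0.06) or of day 6 (0.14). Gata6 (0.03) and Hnf4a (-0.07) did not pass. At day 2 Amn had already risen by 2.62 (SE 0.15, limma adjusted p = 1.1e-11), Dab2 by 2.44 and Srgn by 2.08, whereas Gata6 fell by 0.45 (SE 0.1, adjusted p = 0.000669). In either direction 7, 4, 4 and 7 of the 9 genes passed at day 2 in WT, KO, no Dex and Dex, against 63.4%, 65.6%, 67.9% and 60.6% of all tested genes. At day 4 the counts were 7, 5, 5 and 6, against 73.6%, 75%, 76.6% and 75.4%. With time as the contrast, shares of the 9 genes near those of all tested genes are no result about them.

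In KO 6 of the 9 genes were lower at day 6 than at day 0 (Gata4, Gata6, Sox17, Hnf4a, Srgn and Amn, against 35.4% of all tested genes) and 2 were higher (Foxa2 and Dab2, against 45%). Dab2 rose by 2.26 in KO (SE 0.09, limma adjusted p = 4.9e-15), beside 2.09 in WT. In no Dex the same 6 genes were lower (against 33.9%) and Dab2 was higher by 1 (SE 0.09), 1 of 9 against 48%. In Dex Gata4, Gata6 and Hnf4a were lower (3 of 9, against 34%) and Sox17, Foxa2 and Dab2 were higher (3 of 9, against 46.4%). Sox17 changed by 0.68 in Dex (SE 0.14, limma adjusted p = 0.000162) and by -0.45 in no Dex (SE 0.14, limma adjusted p = 0.00523). The fall of Sox17 did not pass without the second library of day 0 or of day 6 in KO, or without the first of day 6 in no Dex (-0.25, -0.34 and -0.33). In KO neither Foxa2 without the first library of day 0 or of day 6 (0.29 and 0.33) nor Srgn without the second of day 0 (-0.57) passed. In Dex Gata4 did not pass without the second library of day 0 (-0.15) or the first of day 6 (-0.18). Gata6 fell by 1.01 in KO, 1.12 in no Dex and 0.98 in Dex. The plot of change from day 0 shows Dab2 above 0 at day 6 in each of the 4 cultures and Gata6 below 0 in the 3 cultures on the knockout background.

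**Figure D3:**
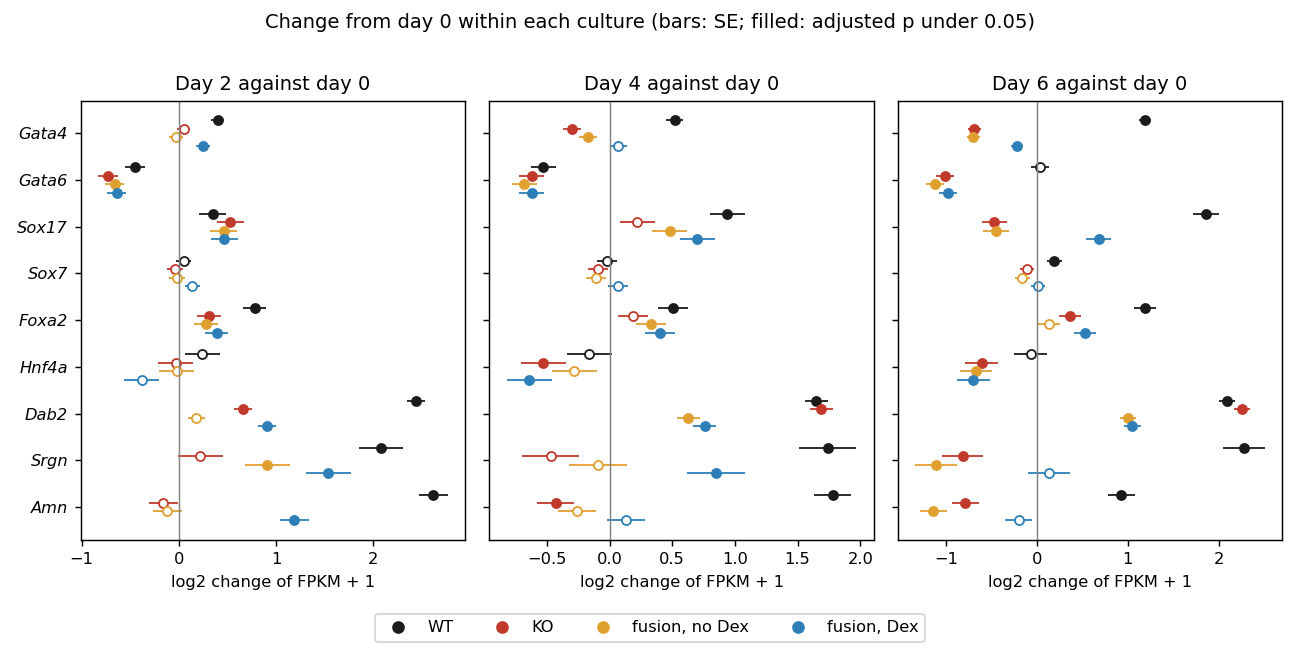
Log2 change of FPKM + 1 from day 0 to days 2, 4 and 6 for each gene, coloured by culture, with bars for the standard error and filled points where the limma adjusted p was under 0.05. WT points reach 2.62 for Amn at day 2 and 2.28 for Srgn at day 6, and the Dab2 points at day 6 lie between 1 and 2.26; the 3 panels have different axes.

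Across the 16 group means of log2(FPKM + 1), where each point carries the depth of its own libraries, pairs of Gata4, Gata6, Sox17, Sox7 and Srgn had Pearson's r between 0.84 and 0.98. Foxa2 had r of 0.9 to 0.93 with Gata4, Sox17, Sox7 and Srgn, and 0.75 with Gata6. These r take in the gap between WT and the other cultures and do not show a shared course over the days. In WT, Sox17 and Srgn rose while Gata6 did not. Dab2 was least like the others, with r from 0.36 (Hnf4a) to 0.85 (Foxa2). Outside the 9, the gene most like both Gata4 (r = 0.991) and Sox7 (r = 0.985) was Foxq1, and the one most like Sox17 was Glipr1 (0.962). Among the genes most like Amn was Cubn (0.95), which encodes cubilin. Srgn and Foxa2 were both closest to Nxf7 (0.951 and 0.954), Dab2 to Pla2g12b (0.936), Hnf4a to Plet1 and H2-Eb1 (both 0.931) and Gata6 to Tor1aip2 (0.959). Tor1aip2 itself varied little, between 24.6 and 37.2 FPKM. These are descriptions over 16 group means.

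A list of 26 other genes of the extraembryonic endoderm (laminins, collagens, apolipoproteins, keratins and others) was described beside the 9. Thbd had at most 0.31 FPKM, and 25 genes were tested. In KO against WT 17 of the 25 were lower and 1 higher at day 0, 21 and 3 at day 2, 21 and 2 at day 4, and 24 and 1 at day 6. Beside the shares called lower given above (29.8%, 21.3%, 24% and 34.2%), 18.4%, 37.5%, 36.5% and 30.9% of all tested genes were called higher at these days. Their median log2 change was -0.56, -0.91, -0.83 and -1.54 at those days. At day 0 Sfmbt2, a Polycomb-related gene, was at 1.37 ± 0.141 FPKM in KO and 12.2 ± 0.474 in WT (SD, n = 2), a log2 change of -2.48, and Col4a2, a basement membrane collagen chain, changed by -1.41. At day 6 the tight junction gene Cldn6 was at 1.66 ± 0.0495 against 27.2 ± 0.679 FPKM (SD, n = 2; -3.4), and the laminin chain gene Lama1 changed by -3.06. The 1 gene higher in KO at day 6 was Plat (1.3), the plasminogen activator gene, named after its value was seen.

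In Dex against no Dex 11 of these 25 genes were higher and 2 lower at day 0, 13 and 1 at day 2, 9 and 3 at day 4, and 16 and 3 at day 6, with a median of 0.37 at day 6. Of all tested genes 27.3%, 12.7%, 18.3% and 23.8% were called higher at days 0, 2, 4 and 6, and 16.1%, 31.5%, 21.9% and 19% lower. At day 6 Cldn6 was higher by 1.69 (7.86 ± 0.0566 against 1.75 ± 0.212 FPKM, SD, n = 2) and the keratin gene Krt19 by 1.66. In Dex against WT at day 0 the list departed from the 9 genes. There 10 of the 25 were lower (30.8% of all tested genes) and 6 higher, with a median of -0.09 beside -0.04 for all tested genes. At days 2, 4 and 6, 20, 19 and 21 were lower (17.2%, 19.1% and 32.2% of all tested genes) and 5, 2 and 1 higher. In WT 20 of the 25 were higher and 4 lower at day 6 than at day 0, with a median of 1.96, where 43.6% of all tested genes were higher and 34.5% lower.

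Since several of the 9 genes act in other tissues too, lists for those tissues were measured in the same libraries. The summed level of 12 genes of definitive endoderm, node and floor plate was 28.4 to 29.8 FPKM in WT and 56.8 to 58.8 in KO at day 6. Of the 12 genes 6 missed the low-value filter, with highest libraries from 0.05 FPKM for Noto to 1.39 FPKM for T. In KO against WT at day 6, 3 of its 6 tested genes were higher and 2 lower, with Cxcr4 up by 2.65 and Trh down (-1.45). Among all tested genes 30.9% were called higher and 34.2% lower. Cxcr4 alone set the direction of the sum: without it the list summed to 22.2 to 23.5 FPKM in WT and 13 to 13.7 in KO.

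The 12 genes of blood and endothelium summed to 17.3 to 18.1 FPKM in WT and 2.24 to 2.75 in KO at day 6, and 5 of 7 tested genes were lower in KO. Beside the day 6 counts of this list and those that follow, 34.2% of all tested genes were called lower and 30.9% higher. Kdr made up most of the WT sum at 11.5 FPKM, against 0.235 in KO (log2 change -3.34). Without Kdr the sums were 5.91 to 6.4 and 2.02 to 2.5 FPKM, and Lmo2 changed by -1.05. The other 5 genes of the list missed the filter, with highest libraries of 0.06 FPKM for Ptprc, 0.1 for Emcn, 0.39 for Fli1, 0.5 for Cdh5 and 0.79 for Tal1. At day 0 the blood and endothelium sums were 36.4 in both WT libraries and 29.3 to 29.9 in KO. The 10 genes of heart and mesoderm summed to 5.75 to 6.2 FPKM in WT and 24.3 to 24.5 in KO at day 6, with Twist1 higher by 3.04 in KO. Without Twist1 the heart and mesoderm sums were 4.34 to 4.47 and 3.92 to 4.58 FPKM, and 2 of its 6 tested genes were higher and 2 lower (median 0.1). The 10 trophoblast genes summed to 10.3 to 10.4 and 7.18 to 7.22 FPKM, with 4 of 6 tested genes lower in KO and 1 higher (median -0.36). Most of the difference in the sum was Hand1, which is also in the heart and mesoderm list. Without Hand1 the trophoblast sums were 7.29 to 8.13 FPKM in WT and 6.86 to 7.05 in KO. Of the 8 stem cell genes 6 were lower in KO at day 6 and 1 higher (median -0.93), and Pou5f1 was at 11.7 FPKM in KO and 37.9 in WT. The part of these cell types in the levels of the 9 genes was not tested.

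With Dex at day 6 the sums were 32.4 to 32.8 FPKM for definitive endoderm, node and floor plate (39.8 to 44.7 without), 7.36 to 8.81 for blood and endothelium (4.01 to 4.3 without), 15.9 to 16.9 for heart and mesoderm (15.3 to 15.7 without) and 22.8 to 23 for trophoblast (15.9 to 17.3 without). Trophoblast genes were higher with Dex in 5 of 6 tested (median 0.36), where 23.8% of all tested genes were called higher and 19% lower. The medians of this list thus had the signs of those of the 9 genes in both comparisons at day 6. Of the stem cell genes 1 was higher with Dex and 3 lower (median -0.19). The medians of the 8 retina and eye field genes also had the signs of the 9 genes at day 6, with larger medians. They summed to 561 to 562 FPKM with Dex and 352 to 353 without, and had median log2 changes of 2.06 for Dex against no Dex and -3.62 for KO against WT. Blood and endothelium had medians of 0.04 and -0.64 in these comparisons, beside 0.01 and -0.03 for all tested genes. At day 0, where the 9 genes already differed between KO and WT, the retina and eye field median was 0.08. For blood and endothelium it was -0.3, with 4 of 7 tested genes lower and 1 higher, against 29.8% and 18.4% of all tested genes. It was -0.13 for definitive endoderm, node and floor plate, 0.05 for heart and mesoderm, 0.04 for trophoblast and 0.05 for stem cell genes.

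**Figure D4:**
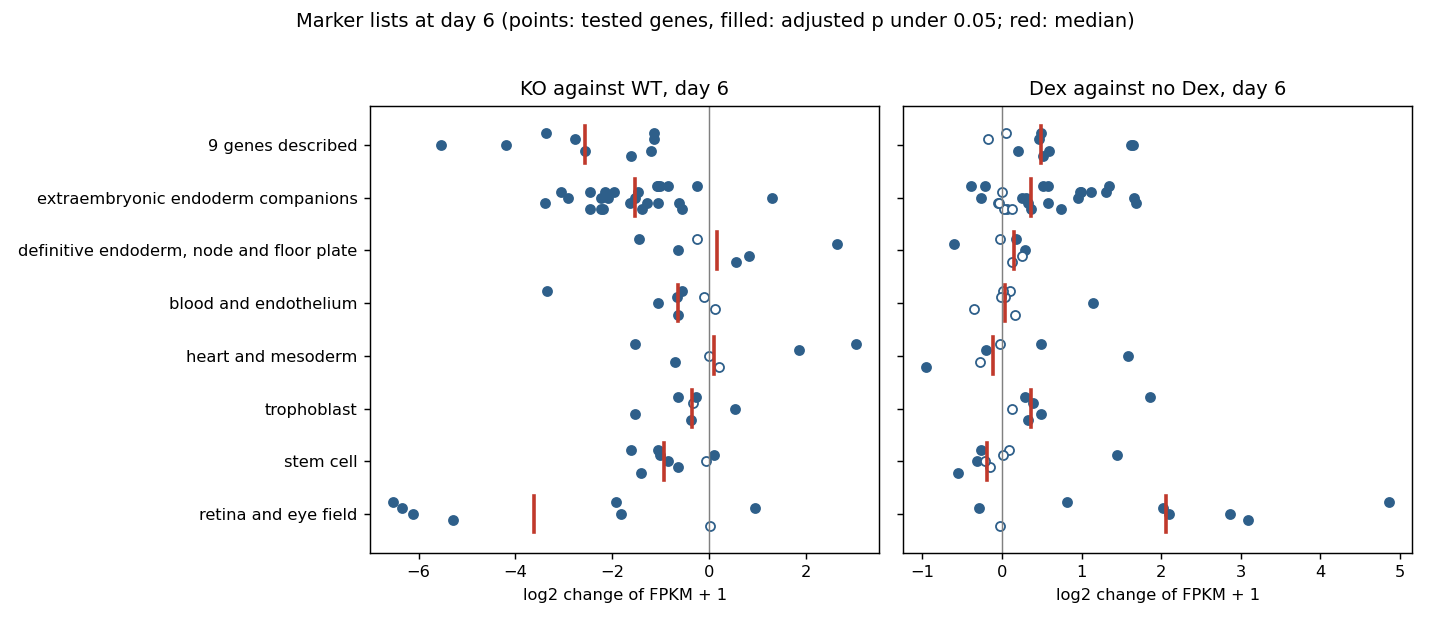
Log2 change of FPKM + 1 at day 6 for the tested genes of each marker list, with KO against WT on the left and Dex against no Dex on the right; each point is a gene, filled where the limma adjusted p was under 0.05, and red bars are list medians. The 9 genes described (median -2.57) and the extraembryonic endoderm companions (median -1.54) lie below 0 in KO against WT except Plat, as do 6 of 8 retina and eye field genes past the test. Among all tested genes 34.2% were called lower there. The panels have different axes.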

How the data were processed

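Polyadenylated RNA from 32 libraries was sequenced as paired reads of 150 bases. STAR, Cuffdiff and build mm10 are named in the submitters' processing notes, without versions or roles. The authors deposited FPKM rounded to 2 decimals, a unit read off the name and the values of that table. Groups came from the sample labels. All libraries carry 1 batch date. The 9 genes and the marker lists were chosen with earlier results of these data known.

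Genes with at least 1 FPKM in at least 2 libraries were tested (16276 of 55492 rows; 21161 rows are 0 throughout) on log2(FPKM + 1), with a pseudocount of 1, using limma 3.58.1 in R 4.3.3 (lmFit, contrasts.fit, eBayes with trend). One fit held 16 group means and 16 residual degrees of freedom, with 30 two-sided contrasts, each adjusted by Benjamini-Hochberg over all tested genes. The fit was tested on simulated data. Depth was estimated from the steps of low FPKM values, using GENCODE transcript lengths and a fitted length offset of 280 to 310 bases: 83.5 to 92.1% of low values fell within 0.2 of a whole fragment, where chance gives 40%. The estimate is approximate, so no count test was run, and limits in fragments cover counting error only.

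Beside the 9 genes, those named were Mettl3, at most 2 called genes of each marker list with the largest change at days 0 or 6 (KO against WT, and Dex against no Dex), and the genes most like each of the 9 in pattern, of which 1 is not reported here. Plat and list genes under the low-value filter (Thbd, Noto, T, Ptprc, Emcn, Fli1, Cdh5, Tal1) were named after their values were seen. List sums at day 6 without the called gene of largest KO against WT change were also added after seeing the data. Alternatives were a pseudocount of 0.1, no low-value filter (34331 genes), median-of-ratios rescaling (factors 0.877 to 1.11), the compared groups alone, a replicate block and leaving out each library.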

Additional observations from a re-analysis of the deposited data

Results flagged for a closer look

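The difference between KO and WT differed between day 6 and day 0 for 7 of the 9 genes, by the limma interaction of culture and day over all tested genes. Its values, as the day 6 minus the day 0 difference in log2(FPKM + 1), were -3.1 for Srgn, -2.33 for Sox17, -1.88 for Gata4, -1.71 for Amn, -1.04 for Gata6, -0.83 for Foxa2 and -0.3 for Sox7. Both KO libraries lay below both WT libraries at each of these days. Sox7 passed the low-value filter through WT alone and Foxa2 mostly so, so their place in this count is not evidence of a change. The Sox7 value did not pass without the second WT library of day 0 (-0.17, limma adjusted p = 0.192) or of day 6 (-0.25, adjusted p = 0.104), nor without the second KO library of day 0 (-0.23) or the first of day 6 (-0.28). Foxa2, which was under 1 FPKM in each KO library, gave -0.38 (adjusted p = 0.46) with a pseudocount of 0.1.

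The difference between Dex and no Dex differed between day 6 and day 0 for 4 genes by the same limma interaction, at 1.24 for Srgn, 1.13 for Sox17, 0.95 for Amn and 0.48 for Gata4. The Srgn value did not pass with the compared groups alone (limma adjusted p = 0.0591). At day 0 the Dex and no Dex libraries of Gata4 and Srgn overlapped, and those of Amn lay in the opposite order to day 6.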

How the results depend on the processing

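The labels give the duplicates of every group the numbers 1 and 2, but differences between duplicates correlated at only -0.09 to 0.13 in 120 comparisons of groups, and duplicates were not treated as pairs. With the replicate block the number of the 9 genes called was within 1.5 times in all 30 comparisons, including 9 for KO against WT at each day, and 182 of 184 called values stayed past the threshold; the other 2 were Sox7 with Dex at days 2 and 6 (limma adjusted p = 0.0513 and 0.0526). No called value changed direction under any alternative. Of 802 alternative values of the 86 that did not pass, 52 changed sign, 0 of these past the threshold, and 40 passed with the same sign. Fitting the compared groups alone lost 30 of 184 calls, no filter and the pseudocount of 0.1 lost 8 each, and rescaling lost 4.

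For no Dex against KO, 3 genes passed at day 0 after rescaling (1 as reported), 1 passed at day 4 with the compared groups alone (Sox17, limma adjusted p = 0.0367, in place of the 2 reported, Gata4 and Srgn), and at day 6 the count was 3 with a pseudocount of 0.1 and 2 with the compared groups alone (1 as reported). For Dex against no Dex at day 0, 0 passed with the compared groups alone (3 as reported). The cause was not tested. Leaving out 1 library gave 1 to 2 for no Dex against KO at day 0 and 1 to 3 at day 4. For Dex against no Dex it gave 1 to 2 at day 0 (lowest without the first no Dex library), 4 to 6 at day 2 (lowest without the first Dex library) and 3 to 4 at day 4 (lowest without the second no Dex library). For day 2 against day 0 it gave 2 to 4 in KO (lowest without the first KO library of day 0) and 2 to 3 in no Dex (lowest without the second of day 2), and for day 4 against day 0 in no Dex 3 to 7 (lowest without the first of day 0 or of day 4). A group left with 1 library was assumed to vary like the other groups. Depth limits Sox7 and Hnf4a most, which lie near 3 fragments in KO and no Dex at day 6. Gata6 lies near that limit too, at 0.02 and 0.03 FPKM in KO at day 6 where 3 fragments are worth 0.02 and 0.018. In the first no Dex library of day 6 it was at 0.03 FPKM against 0.024. Foxa2 was at 0.05 FPKM in the first KO and no Dex libraries of day 0, against 0.045 and 0.049.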
